A study of Mus musculus with 14 samples.

Results

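The regions described here are the accessible chromatin of 8 genes of the C-type lectin families on mouse chromosome 6: Klrg1, Klrc1, Klrd1, Klrk1, Klre1, Klrb1c, Klrb1f and Cd69. A region of the deposited table was taken as belonging to a gene when its midpoint lay in the body of that gene or had a start of that gene as the nearest protein-coding start (GRCm38 positions, RefSeq annotation). By this rule 51 of the 67254 regions were members: 16 at Cd69, 11 at Klrb1c, 10 at Klrg1, 5 each at Klre1 and Klrb1f, 2 at Klrk1 and 1 each at Klrc1 and Klrd1. The assignment is positional and does not show which gene a region regulates.

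Accessibility had been measured by ATAC-seq, in which a transposase inserts adapters into open chromatin, in 14 libraries of splenic regulatory T cells (Tregs) from mixed bone marrow chimeras. Donor marrow was CD45.2+ and either Foxp3Cre Atg14+/fl (control) or Foxp3Cre Atg14 fl/fl (Atg14-deficient), and it was mixed with CD45.1+ wild-type marrow and given to sublethally irradiated Rag1-/- mice. CD4+ Foxp3-YFP+ donor cells were sorted, on CD44 and a further surface marker, as CD44- central Tregs (cTregs; 3 control and 4 Atg14-deficient libraries) or CD44+ effector Tregs (eTregs; 3 control and 4 Atg14-deficient libraries). Every library therefore carried the Cre driver, which acts in Foxp3-expressing cells, and a control cell kept an intact Atg14 allele beside a floxed allele. Atg14 is a subunit of the lipid kinase complex that starts autophagosomes. The labels number the samples of each group and do not say that each number is a separate mouse, so p-values measure the spread between these samples. The authors give cTregs and eTregs as sorted from 3 control and 4 Atg14-deficient chimeras, without tying the numbers to mice.

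The libraries held 2242983 to 5548189 counts, and the 51 regions took 0.0815 to 0.108% of them. Values are counts scaled to the library total (CPM, counts per 1000000), given as mean ± SD, with n = 3 for control and n = 4 for Atg14-deficient groups. A region passed the adjusted threshold when its Benjamini-Hochberg adjusted edgeR p was under 0.05 and its log2 fold change was beyond 0.5 in either direction, and the unadjusted threshold used the p before adjustment instead. The region at the start of Atg14 spanned 22.5 to 35.2 CPM in control cTregs, 16.8 to 25.7 in Atg14-deficient cTregs, 19.8 to 31.2 in control eTregs and 20.9 to 29.3 in Atg14-deficient eTregs, and such a region does not measure the deletion of the floxed exons. Of the marker genes of resting and recirculating T cells, regions at the start averaged 30.2, 37.3, 11.1 and 19.5 CPM for Ccr7, 42.6, 43.9, 23.5 and 29.9 CPM for Tcf7 and 72.1, 72.8, 62.5 and 78.8 CPM for Lef1 in control cTregs, Atg14-deficient cTregs, control eTregs and Atg14-deficient eTregs. Lef1 was thus not lower in Atg14-deficient eTregs by its mean. Regions at the starts of 4 of 5 eTreg marker genes (none at Il1rl1) summed to 277 to 286, 267 to 308, 260.4 to 265 and 266 to 300 CPM in the same order of groups and were thus not higher in eTregs as a list. No region lay at the start of Foxp3, and those of the other 3 Treg markers (Il2ra, Ikzf2 and Ctla4) summed to 109 to 119, 123 to 149, 80.0 to 87.4 and 103 to 107 CPM. Regions at the starts of 4 of 5 NK cell marker genes (none at Ncr1) summed to 35.7 to 65.1, 52.9 to 97.4, 41.8 to 81.3 and 37.7 to 80.0 CPM in the same order of groups. No region lay at the starts of 4 B cell markers or of Cd8a, and the region at Cd8b1 averaged 16.1, 16.3, 4.4 and 4.9 CPM. Fewer cells of a type and lower accessibility per cell cannot be told apart in these bulk samples, and the part of other cell types in the results below was not tested.

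C-type lectin-like receptors of the natural killer gene complex are type II membrane proteins that NK cells use to read ligands on other cells, and activated T cells display some of them. Klrg1 is an inhibitory receptor for cadherins that carries a cytoplasmic inhibitory motif and marks differentiated effector T cells and a subset of tissue-homing eTregs. Klrc1 encodes NKG2A, which pairs with CD94, the product of Klrd1, to bind Qa-1. Klrk1 encodes NKG2D, an activating receptor for stress-induced ligands, and Klre1 encodes a receptor chain that pairs with Klri proteins. Klrb1c and Klrb1f encode stimulatory NKR-P1 receptors, and Cd69 is an early activation antigen that binds the egress receptor S1PR1 and takes it from the cell surface.

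Of the 51 regions, 16 lay upstream of their gene, 23 downstream, 8 in introns, 3 in untranslated exons and 1 in a coding exon. They were 176 to 910 bp long with a median of 346 bp. Mean counts per library had a minimum of 5.5 and a median of 35.8, and 50 of the 51 passed the filter on low counts. The region that did not pass lay 2.2 kb upstream of Klrg1 and had no count in 4 libraries and at most 34. Some distal regions lay nearly as close to another gene: the Klrg1 region 11.2 kb upstream was 14.7 kb from a start of M6pr, and the Cd69 region 46.1 kb past the start was 48.5 kb from a start of Clec2d.

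The central 200 bp of the regions on which the results turn are printed here from GRCm38.p6 (RefSeq), 5′ to 3′ on the plus strand, so that the sequence of each region can be seen. They are the regions of Klrg1 (11.2 kb upstream), Klre1 (6.7 kb upstream) and Klrc1 (intron) that were higher in Atg14-deficient eTregs than cTregs, and the Cd69 region with the smallest p between the genotypes (46.1 kb past the start). Capitals mark TGTGGT (the RUNX core motif), GGTGTGA (T-box) or CTTTGA (TCF/LEF) on either strand, so that TCAAAG is CTTTGA read from the other strand.
Klrg1 chr6:122293920-122294119: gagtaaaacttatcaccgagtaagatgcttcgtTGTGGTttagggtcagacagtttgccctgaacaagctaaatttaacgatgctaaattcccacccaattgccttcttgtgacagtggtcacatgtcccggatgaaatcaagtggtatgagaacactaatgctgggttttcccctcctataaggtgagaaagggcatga
Klre1 chr6:129552518-129552717: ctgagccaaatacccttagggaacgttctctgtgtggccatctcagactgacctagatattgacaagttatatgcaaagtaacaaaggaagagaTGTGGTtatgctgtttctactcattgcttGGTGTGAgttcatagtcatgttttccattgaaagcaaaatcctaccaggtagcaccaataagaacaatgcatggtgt
Klrc1 chr6:129680411-129680610: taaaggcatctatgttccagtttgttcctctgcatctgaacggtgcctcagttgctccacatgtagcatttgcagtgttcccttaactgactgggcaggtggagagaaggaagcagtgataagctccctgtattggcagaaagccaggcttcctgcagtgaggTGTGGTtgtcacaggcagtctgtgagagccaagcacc
Cd69 chr6:129229157-129229356: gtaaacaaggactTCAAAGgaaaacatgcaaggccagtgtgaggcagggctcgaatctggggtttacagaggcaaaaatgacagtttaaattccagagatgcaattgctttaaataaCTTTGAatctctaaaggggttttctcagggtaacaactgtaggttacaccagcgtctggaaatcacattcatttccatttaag

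The Klrg1 locus had more accessibility in eTregs than in cTregs by its mean in both genotypes. The CPM summed over its 10 regions were 71.1, 119 and 46.8 in control cTregs and 137, 170 and 116 in control eTregs. In Atg14-deficient cells they were 67.6, 49.1, 62.6 and 118 in cTregs and 141, 100, 126 and 222 in eTregs. The mean was therefore 1.79 times as high in eTregs as in cTregs of controls (141 ± 27.5 against 78.9 ± 36.6) and 1.98 times as high in Atg14-deficient cells (147 ± 52.5 against 74.4 ± 30.3). The groups overlapped, since control cTreg replicate 2 and Atg14-deficient cTreg replicate 4 reached the level of the lowest eTreg libraries. Under TMM scaling the control groups were just apart (at most 117 CPM in cTregs and at least 119.9 in eTregs). The sums were given no test, because the regions were grouped with results of these data known.

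**Figure D1:**
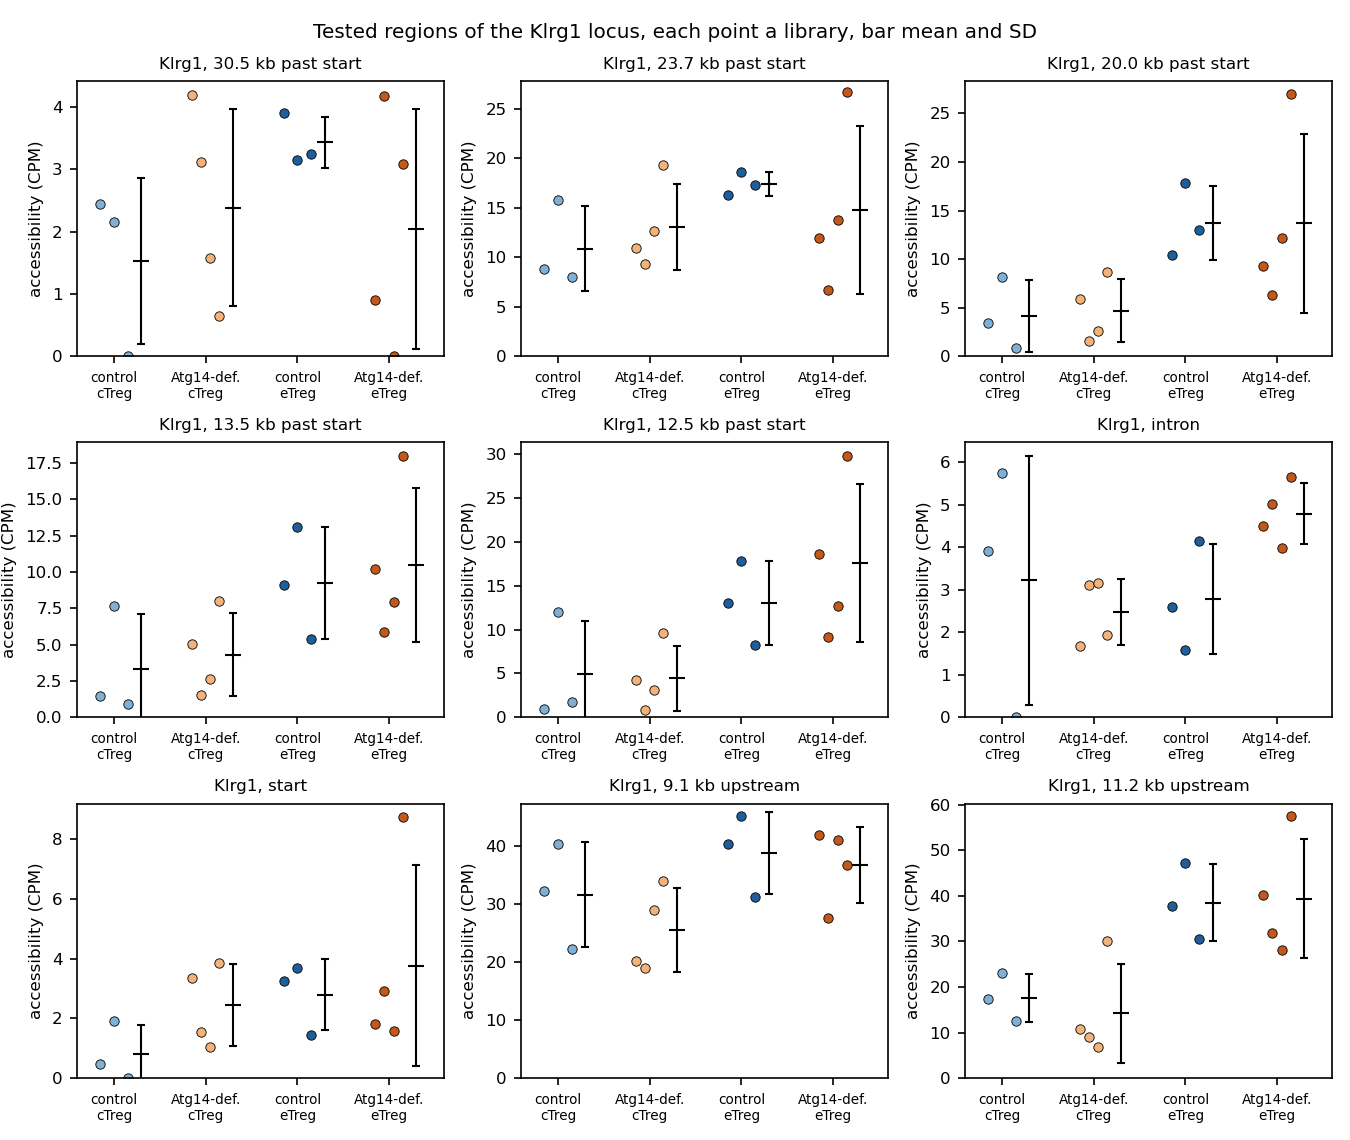
Accessibility (CPM, vertical axis) of the 9 tested Klrg1 regions in each library (points) of the 4 groups, with the mean and SD as a bar (cut at 0 where it would go below). At 11.2 kb upstream the 3 control eTreg libraries lie between 30.5 and 47.2 CPM, above the 3 control cTreg libraries at 12.5 to 22.98.

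Most of the Klrg1 signal came from 2 regions upstream of the gene. The region 11.2 kb upstream (chr6:122293802-122294237) measured 17.4, 22.98 and 12.5 CPM in control cTregs and 37.7, 47.2 and 30.5 in control eTregs. In Atg14-deficient cells it measured 10.9, 8.95, 6.84 and 30.2 CPM in cTregs and 40.2, 31.8, 28.1 and 57.5 in eTregs. All 3 control eTreg libraries were above all 3 control cTreg libraries, whereas Atg14-deficient cTreg replicate 4 was above the lowest eTreg library of its genotype. In Atg14-deficient cells the region rose in eTregs by a log2 fold change of 1.47 (SE 0.37, adjusted p = 0.0211 by edgeR's quasi-likelihood test with Benjamini-Hochberg adjustment over 61366 regions). In controls the log2 fold change was 1.09 (SE 0.41) with an adjusted p of 0.145, past the unadjusted threshold only. The difference between the changes of the 2 genotypes was 0.38, past neither threshold. The call in Atg14-deficient cells was lost without cTreg replicate 1 (adjusted p = 0.0610), 2 (0.0623) or 3 (0.0525) or eTreg replicate 4 (0.0591).

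The region 9.1 kb upstream (chr6:122291753-122292160) had the highest count of the locus, with 116.9 reads per library on average. It measured 32.3, 40.4 and 22.3 CPM in control cTregs and 40.3, 45.1 and 31.2 in control eTregs, and the 2 groups overlapped. Atg14-deficient libraries measured 20.2, 19.1, 28.9 and 34.1 CPM in cTregs and 41.9, 27.6, 41.0 and 36.7 in eTregs. Its log2 fold changes between eTregs and cTregs were 0.27 (SE 0.23) in controls and 0.52 (SE 0.21) in Atg14-deficient cells, with adjusted edgeR p of 0.563 and 0.0990. The 2 upstream regions therefore differed in size of change by the point estimates, a difference that was not tested.

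Accessibility at the start of Klrg1 was low. The region there (chr6:122283555-122283870) measured 0.489, 1.91 and 0 CPM in control cTregs and 3.25, 3.67 and 1.44 in control eTregs. In Atg14-deficient cells it measured 3.36, 1.56, 1.05 and 3.85 CPM in cTregs and 1.80, 2.93, 1.59 and 8.73 in eTregs. The value of 0 was in the shallowest library, where a count of 0 allows up to 1.34 CPM (3 counts, counting error only) if each count is independent. It allows more if both mates of a fragment were counted. No change at the start was detectable at this depth (log2 fold change 1.56, SE 0.84, in controls and 0.65, SE 0.66, in Atg14-deficient cells, with adjusted edgeR p of 0.305 and 0.567).

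Downstream of Klrg1, 3 regions were higher in eTregs by more than 1 on the log2 scale in both genotypes by the point estimate, none past the adjusted threshold in the unpaired edgeR fit with library totals. The region 12.5 kb past the start (chr6:122270152-122270555) measured 0.978, 12.0 and 1.78 CPM in control cTregs against 13.0, 17.8 and 8.29 in control eTregs, and 4.20, 0.779, 3.15 and 9.64 in Atg14-deficient cTregs against 18.6, 9.20, 12.7 and 29.8 in Atg14-deficient eTregs. Control cTreg replicate 2 and Atg14-deficient cTreg replicate 4 were again the highest cTreg libraries of their groups. Its log2 fold changes were 1.31 (SE 0.76) and 1.97 (SE 0.68), with adjusted edgeR p of 0.371 and 0.0807. The region 20.0 kb past the start (chr6:122262536-122263054) averaged 4.15 ± 3.68 CPM in control cTregs, 13.7 ± 3.78 in control eTregs, 4.68 ± 3.23 in Atg14-deficient cTregs and 13.7 ± 9.18 in Atg14-deficient eTregs. Its log2 fold changes were 1.62 (adjusted p = 0.119) and 1.57 (adjusted p = 0.0605), the latter past the adjusted threshold under TMM scaling (0.0498), loess offsets (0.0416) and DESeq2 (0.0284). Those of the region 13.5 kb past the start were 1.34 (0.210) and 1.29 (0.111).

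Across the 9 tested Klrg1 regions, 8 were higher in eTregs in each genotype by the sign of the log2 fold change, with a median of 1.09 in controls and 0.93 in Atg14-deficient cells, beside medians of -0.01 and 0.02 over all 61366 tested regions. The exceptions were the intron region in controls (-0.28) and the region 30.5 kb past the start in Atg14-deficient cells (-0.23). At the unadjusted edgeR threshold, 3 regions rose in controls and 5 in Atg14-deficient cells, where 7.76% and 11.4% of all tested regions did.

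With the same-numbered cTreg and eTreg samples taken as pairs, 4 further Klrg1 regions of Atg14-deficient cells passed the adjusted threshold, in a fit in which 7.63% of all tested regions rose past it. In this fit the region 11.2 kb upstream had a log2 fold change of 1.57 (adjusted p = 9.40e-08) and the region 12.5 kb past the start one of 2.05 (2.92e-05). The regions 20.0 kb past the start (1.58, adjusted p = 0.000786), 13.5 kb past the start (1.33, 0.00717) and 9.1 kb upstream (0.53, 0.0174) passed in the same fit. The samples were paired here because the deviations of same-numbered Atg14-deficient samples from their group means went together for every number. The control numbers did not meet this for every number, and the same fit also carried Klrg1 regions of controls past the adjusted threshold, among them that 11.2 kb upstream (1.13, adjusted p = 0.000136).

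**Figure D2:**
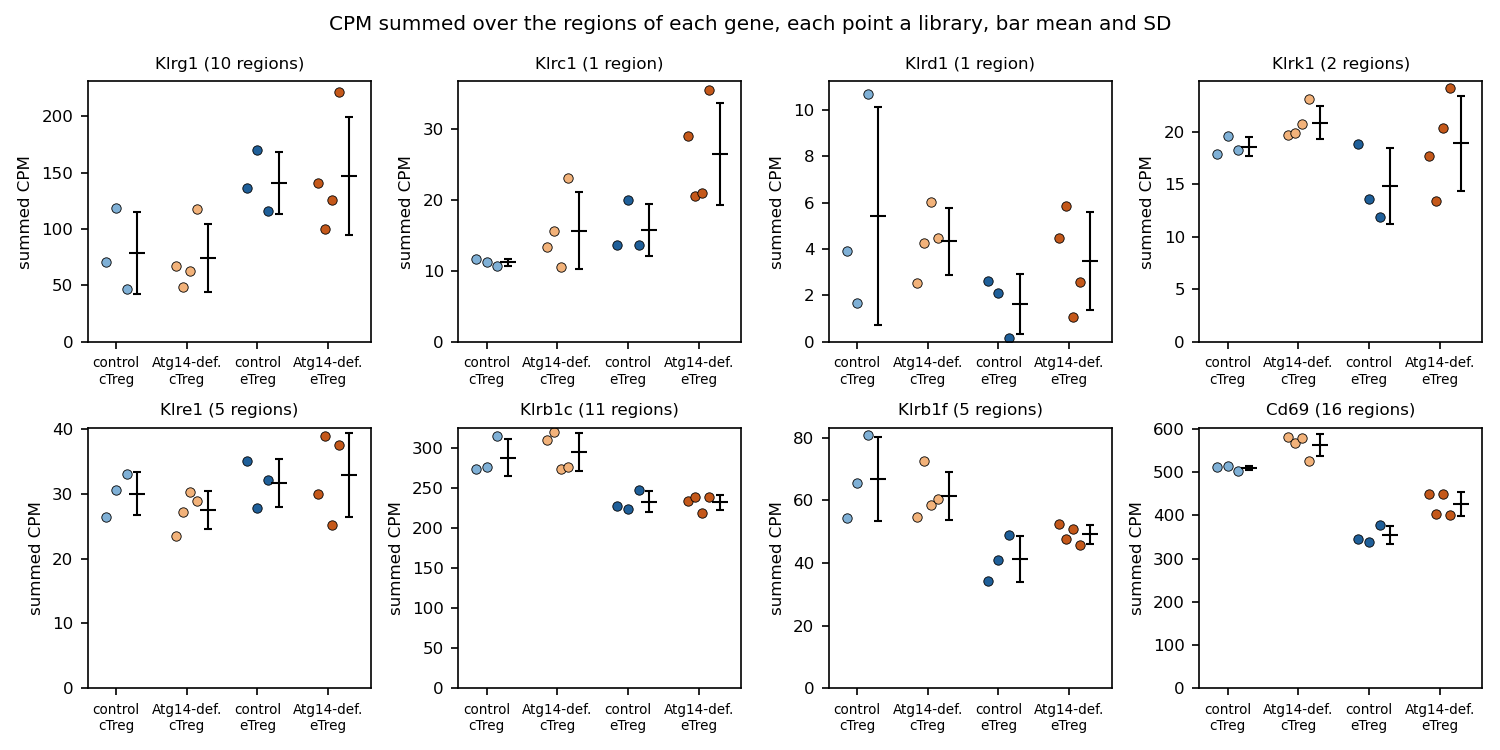
CPM summed over the regions of each of the 8 genes (vertical axis, starting at 0) in each library (points), with the mean and SD as a bar. Klrg1 averages 78.9 and 141 in control cTregs and eTregs, whereas Cd69 averages 510 and 354.

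Among the genes of the NKG2 cluster, a region of Klre1 rose past the adjusted threshold in eTregs of both genotypes. A region of Klrc1 did so in Atg14-deficient cells only, and was also higher in control eTregs by its point estimate. The Klre1 region 6.7 kb upstream of the gene (chr6:129552434-129552800) measured 0.489, 2.87 and 0.892 CPM in control cTregs and 8.46, 3.94 and 7.03 in control eTregs. Atg14-deficient libraries measured 0.840, 1.56, 1.05 and 2.57 CPM in cTregs and 13.2, 9.62, 3.18 and 6.42 in eTregs. Every eTreg library was above every cTreg library of its genotype. The log2 fold change was 2.09 (SE 0.60, adjusted p = 0.0371) in controls and 2.38 (SE 0.53, adjusted p = 0.00521) in Atg14-deficient cells. It had 15.6 counts per library on average, and the call in controls was lost without cTreg replicate 1 (adjusted p = 0.205) or 3 (0.119) or eTreg replicate 1 (0.139) or 3 (0.0894).

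The other Klre1 regions did not follow the upstream region. The region at the start of Klre1 (chr6:129559305-129559650) averaged 16.0 ± 1.97 CPM in control cTregs, 16.1 ± 0.695 in control eTregs, 13.2 ± 2.80 in Atg14-deficient cTregs and 12.0 ± 3.49 in Atg14-deficient eTregs. The 3 intron regions of Klre1 measured 0 to 8.92 CPM over all libraries, and none passed either threshold between eTregs and cTregs. Summed over its 5 regions, Klre1 averaged 30.0 ± 3.34, 31.7 ± 3.67, 27.5 ± 2.91 and 32.9 ± 6.48 CPM in control cTregs, control eTregs, Atg14-deficient cTregs and Atg14-deficient eTregs.

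The Klrc1 region lay in an intron (chr6:129680179-129680841) and measured 11.7, 11.2 and 10.7 CPM in control cTregs and 13.7, 19.9 and 13.7 in control eTregs. In Atg14-deficient cells it measured 13.4, 15.6, 10.5 and 23.1 CPM in cTregs and 29.1, 20.5, 20.9 and 35.4 in eTregs. The 3 control eTreg libraries were above the 3 control cTreg libraries, and Atg14-deficient cTreg replicate 4 overlapped the eTreg libraries of its genotype. The region rose in Atg14-deficient eTregs by a log2 fold change of 0.77 (SE 0.25, adjusted p = 0.0450), and its change in controls was 0.48 (SE 0.30, adjusted p = 0.382). The difference between the changes of the genotypes was 0.28 (SE 0.39), past neither threshold. Without any of Atg14-deficient cTreg replicates 1, 2 and 3, Atg14-deficient eTreg replicates 1 and 4, control cTreg replicate 1 or control eTreg replicate 1, the adjusted p was 0.0537 to 0.186.

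Regions of Klrd1 and Klrk1, the CD94 and NKG2D genes, passed no adjusted threshold. The Klrd1 region at a start of the gene (chr6:129591516-129591908) measured 3.91, 1.68 and 10.7 CPM in control cTregs and 2.60, 2.10 and 0.180 in control eTregs, with 4.34 ± 1.44 in Atg14-deficient cTregs and 3.49 ± 2.11 in Atg14-deficient eTregs. Its log2 fold change in controls was -1.75 (SE 0.73, adjusted p = 0.169), and control cTreg replicate 3 was the highest of the 14 libraries. Without it the log2 fold change was -0.88, and without control eTreg replicate 3 it was -1.11, each past neither threshold. Klrk1 had no region at a start, and its region 14.1 kb past the start (chr6:129608360-129608773) averaged 16.5 ± 1.81, 11.5 ± 2.00, 18.1 ± 2.22 and 12.9 ± 3.84 CPM in control cTregs, control eTregs, Atg14-deficient cTregs and Atg14-deficient eTregs. The log2 fold changes of eTregs against cTregs there were -0.53 (adjusted p = 0.291) and -0.48 (0.206). The Klrk1 region 3.7 kb upstream went the other way by its point estimates, at 0.56 (0.639) and 1.16 (0.112).

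Of the NKR-P1 genes, Klrb1c and Klrb1f had regions that fell past the adjusted threshold in Atg14-deficient eTregs. Each of these was also lower in control eTregs by its point estimate, and no difference between the genotypes' changes there passed either threshold. With the samples paired 1 Klrb1c region, 7.9 kb upstream, rose in Atg14-deficient eTregs. The Klrb1c region 24.5 kb past the start (chr6:128763818-128764493) measured 50.0, 63.8, 52.1 and 65.5 CPM in Atg14-deficient cTregs and 36.6, 47.3, 36.0 and 35.4 in Atg14-deficient eTregs, with no overlap. In controls it measured 48.1, 50.7 and 66.9 CPM in cTregs and 43.6, 44.1 and 49.6 in eTregs, which overlapped. The log2 fold changes were -0.58 (SE 0.15, adjusted p = 0.0118) in Atg14-deficient cells and -0.26 (SE 0.17) in controls.

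The Klrb1c region 18.6 kb upstream (chr6:128807065-128807320) averaged 22.4 ± 1.24 CPM in control cTregs, 13.9 ± 3.01 in control eTregs, 19.1 ± 4.11 in Atg14-deficient cTregs and 11.5 ± 2.37 in Atg14-deficient eTregs. In both genotypes every eTreg library was below every cTreg library, the closest being 13.9 and 14.3 CPM in Atg14-deficient cells. The log2 fold change was -0.72 (SE 0.24, adjusted p = 0.0471) in Atg14-deficient cells and -0.69 (SE 0.26, adjusted p = 0.122) in controls. This region lay 19.1 kb from a start of Klrb1b. Its call was lost in 11 of the 14 fits that left out a library, with adjusted p between 0.0508 and 0.145, the exceptions being control cTreg replicate 3, Atg14-deficient cTreg replicate 1 and control eTreg replicate 2.

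The Klrb1c region with the highest count, 14.6 kb upstream (chr6:128802983-128803484), averaged 87.1 ± 15.4, 75.7 ± 10.6, 101 ± 13.7 and 71.5 ± 4.15 CPM in control cTregs, control eTregs, Atg14-deficient cTregs and Atg14-deficient eTregs. Its log2 fold change in Atg14-deficient cells of -0.49 (SE 0.13) had an adjusted edgeR p of 0.0148 and stayed inside the fold threshold of 0.5. The region at the start of Klrb1c (chr6:128788523-128788722) averaged 0.964 to 3.31 CPM in the 4 groups. The sum over the 11 Klrb1c regions was 288 ± 23.02 CPM in control cTregs, 233 ± 12.8 in control eTregs, 295 ± 23.7 in Atg14-deficient cTregs and 232 ± 9.06 in Atg14-deficient eTregs. NKR-P1 genes are near-copies of each other, so reads from these loci may have been assigned to a related gene.

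The Klrb1f region 18.0 kb past the start (chr6:129066956-129067367) measured 24.4, 26.6 and 30.3 CPM in control cTregs and 15.6, 13.1 and 18.0 in control eTregs. Atg14-deficient libraries measured 20.2, 34.3, 23.1 and 21.2 CPM in cTregs and 14.4, 12.6, 15.4 and 11.8 in eTregs. Both pairs of groups were separate. The region fell in Atg14-deficient eTregs by 0.86 on the log2 scale (SE 0.22, adjusted p = 0.0122), and in controls the log2 fold change was -0.78 (SE 0.24, adjusted p = 0.0546). In controls the adjusted p was 0.0299 by DESeq2 and 0.0132 by edgeR with the samples paired. By edgeR under TMM and loess offsets it was 0.0592 and 0.0630. The call in Atg14-deficient cells was lost without Atg14-deficient cTreg replicate 2 (adjusted p = 0.0651). The region at the start of Klrb1f (chr6:129049079-129049436) averaged 11.9 ± 6.04, 6.76 ± 1.39, 8.98 ± 3.54 and 10.3 ± 3.20 CPM in control cTregs, control eTregs, Atg14-deficient cTregs and Atg14-deficient eTregs and passed no threshold.

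Cd69 had the most regions of the 8 loci, and its accessibility was lower in eTregs. The CPM summed over its 16 regions were 512, 514 and 504 in control cTregs and 346, 338 and 379 in control eTregs, and 581, 567, 580 and 526 in Atg14-deficient cTregs against 450, 402, 450 and 401 in Atg14-deficient eTregs. No eTreg library reached the lowest cTreg library of its genotype.

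The region at the start of Cd69 (chr6:129275215-129275630) measured 46.4, 61.7 and 59.7 CPM in control cTregs and 38.4, 38.1 and 37.5 in control eTregs. Atg14-deficient libraries measured 66.3, 58.8, 68.1 and 70.3 CPM in cTregs and 46.4, 43.1, 43.4 and 43.4 in eTregs. The groups were separate in both genotypes, and the region fell by 0.56 (SE 0.15, adjusted p = 0.0258) and by 0.58 (SE 0.13, adjusted p = 0.00494) on the log2 scale. In controls the call at the start was lost in 5 fits that left out a library (adjusted p of 0.0740 to 0.0951), without control cTreg replicate 2 or 3 or any control eTreg replicate.

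**Figure D3:**
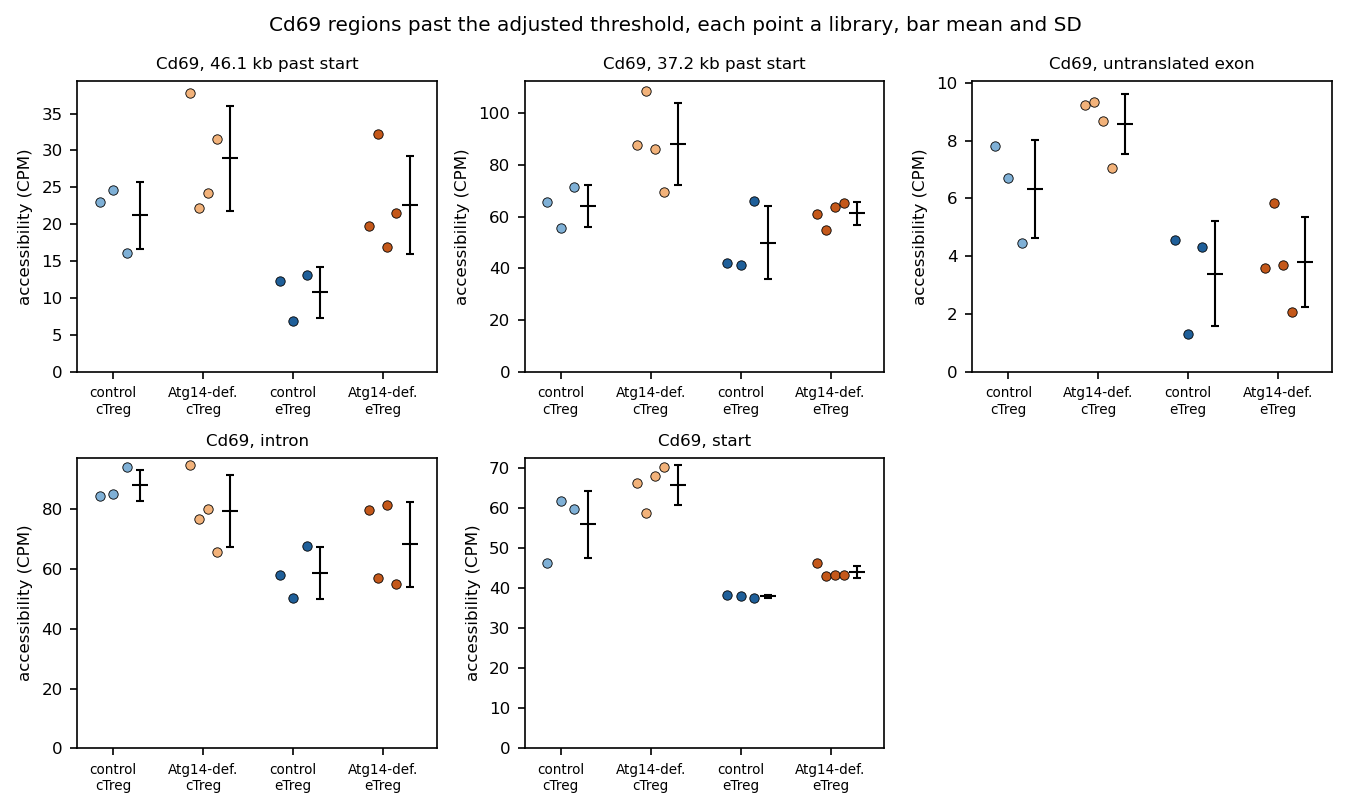
Accessibility (CPM, vertical axis, starting at 0) of 5 Cd69 regions past the adjusted threshold between eTregs and cTregs in at least 1 genotype, in each library (points) with the mean and SD as a bar. At the start, control eTregs lie at 37.5 to 38.4 CPM and Atg14-deficient eTregs at 43.1 to 46.4, both below the cTreg libraries of their genotype.

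A further 4 Cd69 regions passed the adjusted threshold in 1 genotype each. The intron region (chr6:129273561-129274136) averaged 87.9 ± 5.31 CPM in control cTregs and 58.7 ± 8.72 in control eTregs and fell by 0.58 on the log2 scale (SE 0.16, adjusted p = 0.0333), beside -0.21 (adjusted p = 0.358) from 79.4 ± 12.0 to 68.3 ± 14.3 CPM in Atg14-deficient cells. The region 46.1 kb past the start (chr6:129229032-129229481) measured 22.97, 24.7 and 16.1 CPM in control cTregs and 12.4, 6.82 and 13.2 in control eTregs. It fell there by 0.99 on the log2 scale (SE 0.29, adjusted p = 0.0395), and in Atg14-deficient cells the log2 fold change was -0.36 (adjusted p = 0.344). Without control cTreg replicate 1 or 3 or control eTreg replicate 1 or 2 the call of the intron region was lost (adjusted p of 0.0907 to 0.155), and without control cTreg replicate 1 or 2 or control eTreg replicate 1 or 2 that of the region 46.1 kb past the start (0.0831 to 0.191).

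In Atg14-deficient cells the region 37.2 kb past the start of Cd69 (chr6:129237727-129238636) measured 87.8, 109, 86.0 and 69.7 CPM in cTregs and 61.1, 54.8, 63.8 and 65.2 in eTregs, with no overlap. It fell by 0.52 on the log2 scale (SE 0.15, adjusted p = 0.0255), and by 0.50, just inside the fold threshold, with the samples paired. The region in the untranslated exon (chr6:129267434-129267724) averaged 8.58 ± 1.05 CPM in Atg14-deficient cTregs and 3.80 ± 1.56 in Atg14-deficient eTregs and fell by 1.20 (SE 0.40, adjusted p = 0.0486). Control eTregs were lower than control cTregs by the point estimate at both (-0.34 and -0.91), without a call. Leaving out a library ended the call of the former in 5 of 14 fits (Atg14-deficient cTreg replicates 1, 2 and 3 and eTreg replicates 1 and 2, adjusted p of 0.0541 to 0.108) and that of the latter in 10 of 14 (0.0506 to 0.156), all but those without control cTreg replicate 3, Atg14-deficient cTreg replicate 4, control eTreg replicate 2 or Atg14-deficient eTreg replicate 2.

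Over all 16 Cd69 regions, 14 were lower in control eTregs and 12 in Atg14-deficient eTregs by the sign of the log2 fold change, with medians of -0.57 and -0.28. Of these, 4 fell past the adjusted threshold in each genotype, beside 3.29% of all tested regions in controls and 5.4% in Atg14-deficient cells, and the region at the start was among them in both. Going the other way, the region 9.3 kb past the start had log2 fold changes of 0.96 in controls and 1.11 in Atg14-deficient cells (adjusted p = 0.0905 in the latter).

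Taking the 8 loci in one count, 5 of 50 tested regions passed the adjusted threshold between control eTregs and cTregs, 1 higher and 4 lower, which is 10% of the members beside 5.3% of all tested regions (2.01% higher and 3.29% lower). At the unadjusted threshold 16 passed (4 higher and 12 lower), 32% beside 18.2% (7.76% higher and 10.4% lower). Between Atg14-deficient eTregs and cTregs 10 passed the adjusted threshold, 3 higher and 7 lower, or 20% beside 9.81% of all regions (4.41% higher and 5.4% lower), and 21 passed the unadjusted threshold (11 higher and 10 lower), or 42% beside 23.1% (11.4% higher and 11.8% lower). With the samples paired the adjusted count in Atg14-deficient cells was 16 (8 higher), or 32% beside 15.5% of all regions in that fit (7.63% higher and 7.84% lower), and 9 of them were among the 10. Besides the 4 Klrg1 regions, those gained were the Klrb1c region 7.9 kb upstream, which rose (0.65, adjusted p = 0.0244), and the Cd69 regions 38.2 kb (-0.57, adjusted p = 0.0167) and 12.7 kb past the start (-2.59, adjusted p = 0.0400). In controls the same fit called 11 of the 50 regions, beside 10.4% of all regions, so the count rose with pairing in both genotypes. Regions whose libraries did not overlap between the groups numbered 7 above and 14 below in controls (12.2% and 13.9% of all regions), and 3 above and 10 below in Atg14-deficient cells (7.13% and 8.38%).

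**Figure D4:**
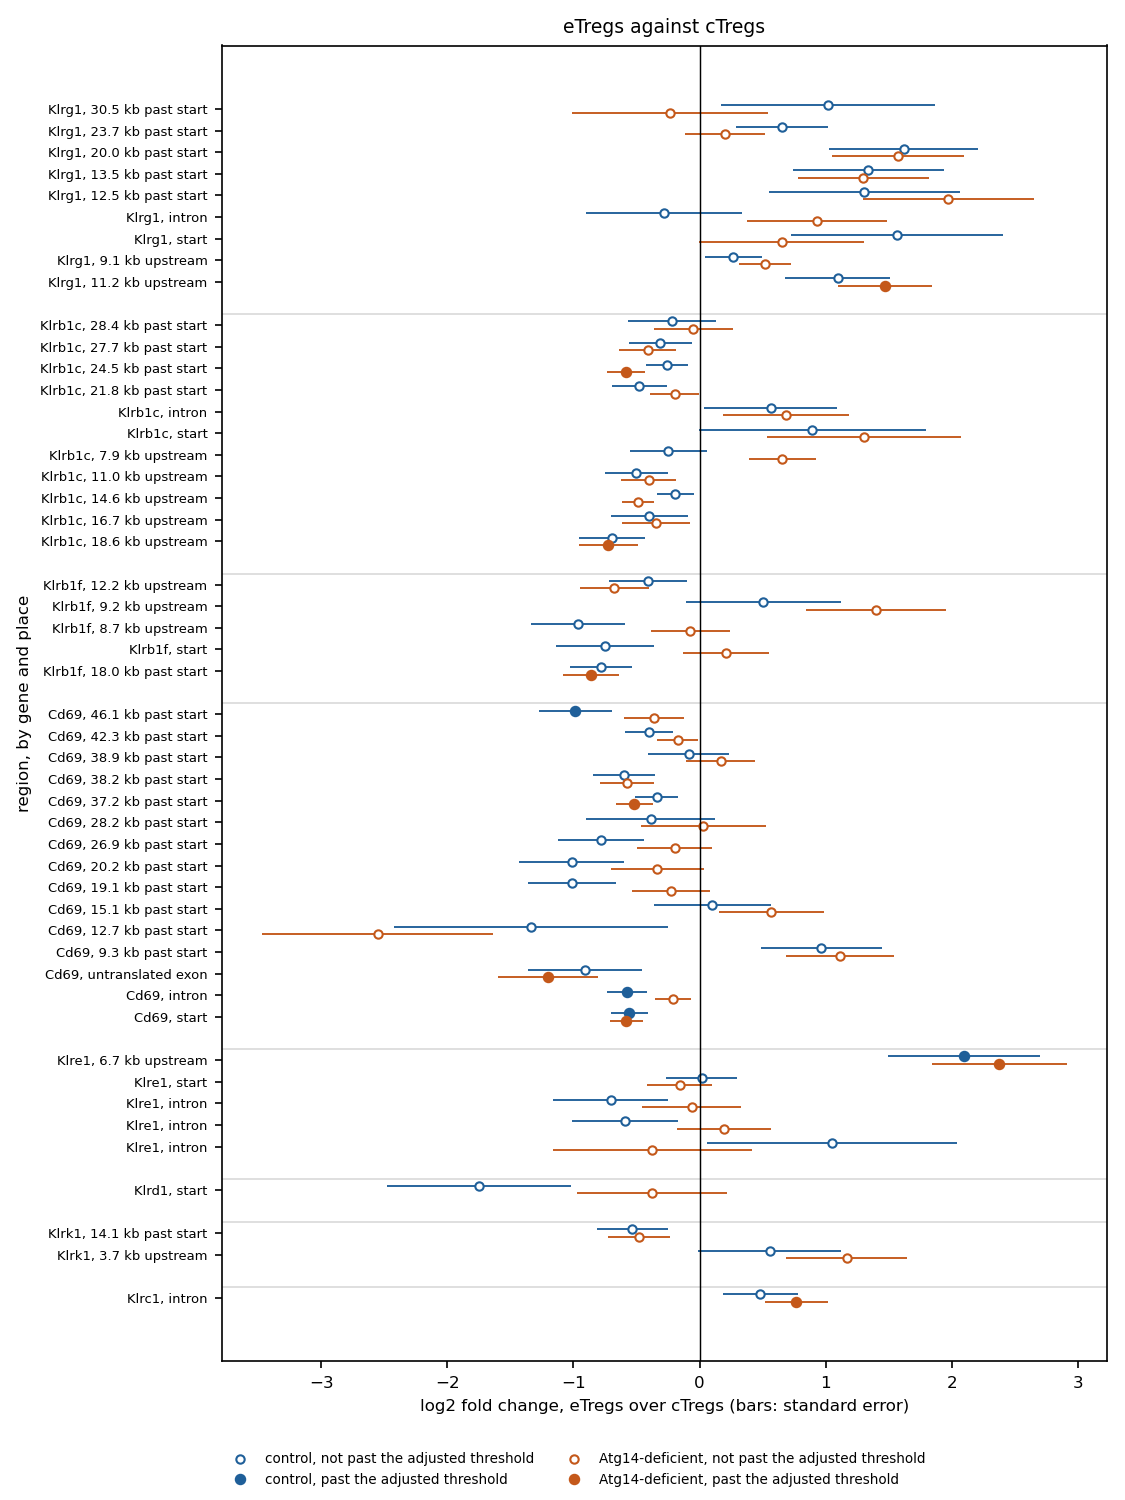
Log2 fold change of eTregs over cTregs (horizontal axis, bars are the standard error) for 49 of the 50 tested regions grouped by gene, with control and Atg14-deficient cells in separate colours and filled points past the adjusted threshold. Klrg1 and the upstream Klre1 region lie mostly to the right of 0, and Cd69 mostly to the left.

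Next, Atg14-deficient and control cells of the same state were compared. In eTregs no member region passed the adjusted edgeR threshold (0 of 50, beside 0.0228% of all regions). DESeq2 also called 0, with a smallest adjusted p of 0.0915, and 5 regions had an edgeR p under 0.05 before adjustment at any fold. At the unadjusted edgeR threshold 4 regions of 4 genes were higher in Atg14-deficient eTregs and none was lower, 8% of the members beside 6.36% of all regions (4.59% higher and 1.77% lower). Libraries did not overlap at 5 regions that were above and 1 that was below (4.97% and 3.51% of all regions).

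The smallest p was at the Cd69 region 46.1 kb past the start, which measured 19.8, 32.2, 16.9 and 21.6 CPM in Atg14-deficient eTregs and 12.4, 6.82 and 13.2 in control eTregs. All 4 Atg14-deficient libraries were above all 3 controls. The log2 fold change was 1.04 (SE 0.27) with an adjusted p of 0.298. In cTregs the same region measured 37.8, 22.2, 24.2 and 31.5 CPM against 22.97, 24.7 and 16.1, with a log2 fold change of 0.42 (SE 0.26), and the difference between the 2 genotype effects was 0.62 (SE 0.37), past neither threshold.

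The Klrc1 intron region was higher in Atg14-deficient eTregs by 0.76 (SE 0.26, adjusted p = 0.462) on the log2 scale, and its 4 libraries at 20.5 to 35.4 CPM lay above the 3 controls at 13.7 to 19.9. The Klrb1f region 8.7 kb upstream (chr6:129036953-129037345) measured 15.3, 8.37, 14.3 and 11.3 CPM in Atg14-deficient eTregs and 3.58, 7.09 and 8.83 in control eTregs, which overlapped. Its log2 fold change was 0.89 (SE 0.35, adjusted p = 0.534). The Klrb1c region 7.9 kb upstream (chr6:128796265-128796775) measured 30.0, 20.1, 24.6 and 22.3 CPM in Atg14-deficient eTregs and 13.0, 20.7 and 12.1 in control eTregs. Its log2 fold change was 0.67 (SE 0.28, adjusted p = 0.566). Past the unadjusted threshold only, the Klrb1f call was lost without control eTreg replicate 1 (0.63) or Atg14-deficient eTreg replicate 1 (0.78), and the Klrb1c call without control eTreg replicate 1 (0.58) or 3 (0.52) or Atg14-deficient eTreg replicate 1 (0.56).

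At Klrg1 no region passed either threshold between the genotypes. The region 11.2 kb upstream averaged 39.4 ± 13.1 CPM in Atg14-deficient eTregs and 38.5 ± 8.41 in control eTregs, a log2 fold change of 0.05 (SE 0.37). The region 9.1 kb upstream averaged 36.8 ± 6.55 and 38.9 ± 7.09 CPM, a log2 fold change of -0.06 (SE 0.21). The Klrg1 sums of Atg14-deficient eTregs, 100 to 222 CPM, enclosed those of control eTregs, 116 to 170. In cTregs the sums were 49.1 to 118 and 46.8 to 119 CPM. Of the 9 Klrg1 regions 6 had a positive log2 fold change in eTregs with a median of 0.05, which changed to 4 and -0.01 under TMM scaling, so that no direction can be given.

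At Cd69 15 of the 16 regions had a positive log2 fold change in eTregs, and 14 or 15 did under TMM, DESeq2 or loess scaling. Their median was 0.25 beside 0.06 over all regions, and no region passed the adjusted threshold. The Cd69 sums were 401 to 450 CPM in Atg14-deficient eTregs and 338 to 379 in control eTregs, without overlap, and 526 to 581 against 504 to 514 CPM in cTregs, again without overlap. Under TMM scaling the genotypes overlapped in both states (381 to 448 against 335 to 392 CPM in eTregs and 506 to 587 against 505 to 532 CPM in cTregs). The summed start regions of the 3 Treg markers were also higher in Atg14-deficient cells without overlap by library totals (103 to 107 against 80.0 to 87.4 CPM in eTregs and 123 to 149 against 109 to 119 in cTregs), and those of the eTreg markers were higher in eTregs (266 to 300 against 260.4 to 265 CPM). Of the markers of resting T cells, Ccr7 was higher in Atg14-deficient eTregs without overlap (15.9 to 25.9 against 8.78 to 13.6 CPM), while Tcf7 (22.2 to 37.2 against 19.2 to 26.5) and Lef1 (66.8 to 87.5 against 47.6 to 70.6) overlapped. The part of these in the Cd69 values was not tested. At the start of Cd69 the Atg14-deficient eTreg libraries (43.1 to 46.4 CPM) were above the control libraries (37.5 to 38.4 CPM), with a log2 fold change of 0.22 (SE 0.14) that did not reach the fold threshold.

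In cTregs no member region passed the adjusted threshold between the genotypes (0 of 50, beside 0.0163% of all regions) or the unadjusted threshold (0 of 50, beside 3.34%), and DESeq2 called 0 at the adjusted threshold. At an unadjusted edgeR p below 0.05 with any fold there was 1 region, Cd69 37.2 kb past the start, at 88.0 ± 16.0 CPM in Atg14-deficient and 64.1 ± 7.99 in control cTregs (log2 fold change 0.46, SE 0.16). The difference between the genotype effects in eTregs and cTregs passed the adjusted edgeR threshold at 0 of 50 regions (0% of all regions, and 0 by DESeq2) and the unadjusted threshold at 1, or 2% beside 3.05%. This was the Klrb1c region 7.9 kb upstream (0.90, SE 0.40), where control cTregs measured 13.7, 28.7 and 10.7 CPM, and without control cTreg replicate 2 the difference was 0.35. This call was lost in 7 of the 14 fits that left out a library, also without Atg14-deficient cTreg replicate 1, 2 or 3, control eTreg replicate 1 or 3 or Atg14-deficient eTreg replicate 1 (0.75 to 0.87).

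**Figure D5:**
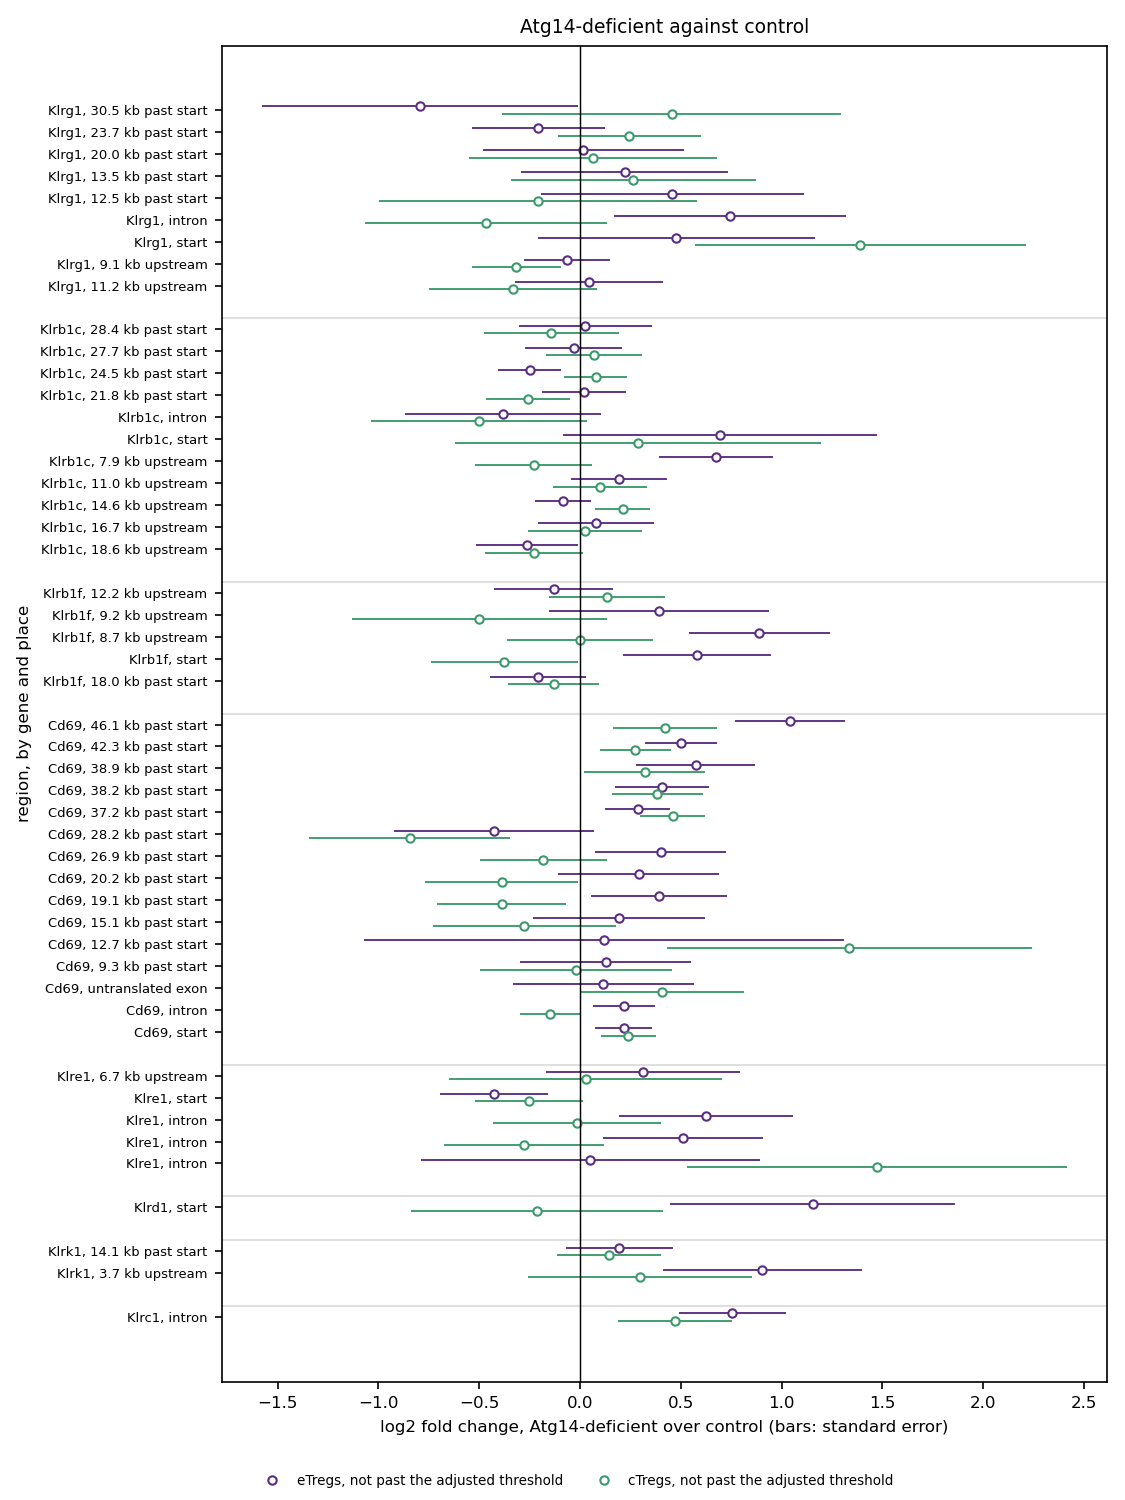
Log2 fold change of Atg14-deficient over control cells (horizontal axis, bars are the standard error) for 49 of the 50 tested regions grouped by gene, with eTregs and cTregs in separate colours. All points are open because none passed the adjusted threshold, and Cd69 46.1 kb past the start at 1.04 in eTregs has the smallest p.

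The sequences of the regions were searched for exact motif letters on both strands in the central 200 bp. TGTGGT, the core bound by RUNX factors, was in 23 of the 50 tested member regions, or 46% beside 22.7% of all tested regions. CTTTGA (TCF/LEF factors, active in resting T cells) was in 13 regions (26% beside 14.8%), GGTGTGA (T-box factors such as T-bet and Eomes) in 6 (12% beside 3.76%), TGANTCA (AP-1) in 5 (10% beside 11.5%) and the NF-kB motif in 1 (2% beside 0.837%). CTTTGA can share its TGA with TGANTCA, and TGTGGT its GGT with GGTGTGA. The members are neighbours of related sequence and had a lower GC content than all regions (median 45.75% against 50.5%), and the part of this in the counts was not tested.

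CTTTGA was in 8 of the 16 Cd69 regions and in none of the 9 tested Klrg1 regions, and TGTGGT was in 5 of each. TGTGGT was also in 4 of 5 Klrb1f regions and in 3 of 5 Klre1 regions, 2 of which held GGTGTGA. All 3 regions called higher in eTregs in either genotype, those of Klrg1, Klre1 and Klrc1 printed above, held TGTGGT, and GGTGTGA was in the Klre1 region. Of the 9 called lower, 5 held TGTGGT and 3 held CTTTGA. The Cd69 region 46.1 kb past the start held CTTTGA at 2 places, as its printed sequence shows. Over whole regions, which are longer, TGTGGT was in 50% of the members beside 34.2% of all tested regions, CTTTGA in 34% beside 25.8% and GGTGTGA in 14% beside 6.98%. A match of letters is a description and not a measurement of binding.

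Genes related to the 8 were read from lists. Of 11 Ly49 receptor genes, the MHC class I receptors of mouse NK cells, 9 had 11 tested regions, and none passed the adjusted threshold in any comparison. At the unadjusted edgeR threshold 3 of these 11 regions were higher in Atg14-deficient eTregs than cTregs and 4 were higher in Atg14-deficient than control eTregs, where 11.4% and 4.59% of all tested regions were. Like NKR-P1 genes, Ly49 genes are near-copies whose reads may be assigned to a related gene.

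Of 21 other lectin-like genes of the complex, 13 had 41 tested regions. In controls 1 region rose and 5 fell in eTregs at the adjusted threshold, beside 2.01% and 3.29% of all regions, and in Atg14-deficient cells 3 fell, beside 5.4%. The Clec2d region at its start, where Clec2d encodes a ligand of NKR-P1 receptors, fell in control eTregs by 0.68 on the log2 scale (SE 0.15, adjusted p = 0.00720), from 121 ± 18.8 to 75.1 ± 15.6 CPM. It was not called in Atg14-deficient cells (139 ± 19.4 CPM in cTregs and 101 ± 10.6 in eTregs). The region that rose in controls was also of Clec2d, 35.7 kb past the start (1.34, SE 0.35, adjusted p = 0.0227), from 4.73 ± 1.10 to 12.3 ± 2.21 CPM. The Clec2d region 5.5 kb past the start fell in both genotypes, by 1.15 (SE 0.28, adjusted p = 0.0140) and by 1.19 (SE 0.24, adjusted p = 0.00223). No region of this list passed the adjusted threshold between the genotypes.

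Of 12 genes of partners, ligands and signalling, 11 had 77 tested regions. In control eTregs 3 of the 77 fell at the adjusted threshold, a share close to the 3.29% of all regions that did. All 3 were of S1pr1, the egress receptor that Cd69 binds. The region at the start of S1pr1 fell from 40.1 ± 4.56 to 17.9 ± 7.22 CPM, by 1.14 on the log2 scale (SE 0.22, adjusted p = 0.00268). In Atg14-deficient cells 3 of the 77 rose and 2 fell, neither share above that of all regions (4.41% and 5.4%). S1pr1 had 1 that rose and 2 that fell, and Ptpn11, the phosphatase SHP-2 recruited by inhibitory receptors, had 2 that rose. The Ptpn11 regions, 41.9 and 12.1 kb from the start, averaged 0.161 and 1.89 CPM in Atg14-deficient cTregs and 2.96 and 10.7 in Atg14-deficient eTregs. In those cTreg libraries 3 counts make 0.789 to 1.26 CPM, so the first of them had almost no counts there. No region of this list passed the adjusted threshold between the genotypes, and 5 of the 77 were higher in Atg14-deficient eTregs at the unadjusted threshold, beside 4.59% of all regions.

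The genes whose summed accessibility was most like that of Klrg1 over the 14 libraries were Cntn1, Ptgs1, Il10, Foxl1 and Serpina3f, with Pearson's r of 0.970, 0.967, 0.965, 0.964 and 0.960 among 7355 genes with at least 3 tested regions (median r 0.153). The values of all genes come from the same 14 libraries, which differ in depth and are split into cTregs and eTregs. Within the 7 cTreg libraries r was 0.926 to 0.959 for these 5 genes and within the 7 eTreg libraries 0.852 to 0.975. The 5 genes were picked for high r over these same libraries, so the values within each population do not stand apart from that choice. No such r was taken for the other genes. Il10, which encodes an inhibitory cytokine made by eTregs, summed to 108 ± 48.7 CPM in control cTregs, 219 ± 41.4 in control eTregs, 117 ± 41.8 in Atg14-deficient cTregs and 227 ± 41.8 in Atg14-deficient eTregs.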

How the data were processed

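Bulk ATAC-seq counts of 14 libraries in 4 groups were analysed. Per the methods, the authors trimmed reads (Trimmomatic), aligned them with BWA, removed duplicates (Picard), shifted them for Tn5 insertion, kept nucleosome-free fragments, called peaks per sample (MACS2), kept those found in 50% or more of a group's replicates, merged them and counted reads with bedtools. The deposited counts are raw and not normalized, and 82.0% of values are even numbers, as when both mates of a fragment are counted, in which case fewer fragments than counts stand behind a value. The methods name mm9, the submitters' notes GRCm38: all 67207 regions on main chromosomes lay within GRCm38 ends, and 26855 of 56164 starts had a region within 200 bp, against 2223 after a shift of 20000 bp, so GRCm38 was used.

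Counts were scaled by library totals and filtered with filterByExpr (61366 regions kept). A fit of 4 groups with edgeR 4.0.16 in R 4.3.3 (glmQLFit, robust, glmQLFTest, two-sided) gave all comparisons, with Benjamini-Hochberg adjustment over all tested regions. Regions passed the adjusted threshold when the adjusted p was under 0.05 and the fold change exceeded 0.5 on the log2 scale, and the unadjusted threshold when the same held for the p before adjustment. Standard errors are the log2 fold change over the root of F. The members and lists were chosen with earlier results of these data known. Named were the start region and the highest-count region of each gene, every region past the adjusted threshold, up to 5 regions per genotype comparison past the unadjusted threshold, and the 5 genes most like Klrg1. Some further regions of the members were named after their values were seen, and 1 Cd69 region that the rule names is counted but not otherwise reported here. The fit was tested on simulated data. Depth was 2242983 to 5548189 counts per library, with a biological coefficient of variation of 25.6% and a median of 23 counts a region. Intervals and floors cover counting error only, and floors take each count as independent. Deviations of same-numbered samples from their group means correlated at 0.21, 0.52, 0.34 and 0.31 in Atg14-deficient cTregs and eTregs (10000 regions), so those samples were also fitted with the number as a block within the genotype. The pairing comes from the numbers in the labels. Alternatives were TMM, DESeq2 size factors, loess offsets, DESeq2 1.42.0, other count filters, other assignment rules, replicate blocks, fits of the compared groups only, and each library left out.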

Additional observations from a re-analysis of the deposited data

Results flagged for a closer look

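In 60 groups of 4 libraries, 2 held a library whose gap to the nearest other library, divided by the range of the 4, was above Dixon's 95% critical value. Chance gives about 3 if the groups are independent, which they are not, since sums and single regions share counts. A gap that is small in CPM can pass where the other libraries lie close together. At the Klrb1c region 24.5 kb past the start, Atg14-deficient eTreg replicate 2 measured 47.3 CPM beside 35.4 to 36.6 CPM in the other replicates. At the start of Cd69, Atg14-deficient eTreg replicate 1 measured 46.4 CPM beside 43.1 to 43.4 CPM.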

How the results depend on the processing

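No called value of a named region changed sign under an alternative, but some medians near 0 between the genotypes did: in eTregs that of Klrg1 under TMM (-0.01) and that of Klrb1c (0.02) under TMM (-0.03), DESeq2 size factors and loess offsets (-0.02 each), and in cTregs that of all members under loess offsets (-0.01, from 0.03) and that of Klrb1c under TMM and loess offsets. Of the tests of named regions under alternatives, 516 kept their side of the threshold and 96 lost it. The count of regions past the adjusted threshold between control eTregs and cTregs (5) was 11 with each genotype's samples paired by number as a block, where 10.4% of all regions passed, and 7 with the replicate number as a block across all groups, and 1 with only regions in gene bodies. Only 12 of the 51 member regions lie in gene bodies, so the counts there come from fewer regions. The filter of at least 10 counts in every library likewise leaves fewer. It ranged from 1 to 6 with a library left out, and was 1 without control cTreg replicate 1 or control eTreg replicate 1 and 2 without control cTreg replicate 3 or control eTreg replicate 2 or 3. The unadjusted count (16) ranged from 10 (without control eTreg replicate 2) to 20 and was 2 in gene bodies. Same-numbered control samples correlated at 0.079, 0.39 and 0.38, each best with its own number, which is a hint of pairing, but the first was too low for the numbers to be taken as pairs. With the pairing block the Klrg1 regions of controls 11.2 kb upstream (adjusted p = 0.000136), 20.0 kb past the start (0.00110) and 13.5 kb past the start (0.00722) passed the adjusted threshold. In Atg14-deficient cells the adjusted count (10) was 16 with the pairing block, 2 in gene bodies and 4 to 15 with a library left out (4 and 5 without cTreg replicates 2 and 3, 6 without eTreg replicate 1 or 4), and the unadjusted count (21) was 12 with at least 10 counts in every library, 2 in gene bodies and 15 to 24 with a library left out. Between the genotypes the unadjusted counts were 3 to 6 in eTregs (1 in gene bodies) and 0 to 3 in cTregs with a library left out (1 with the replicate number as a block). The unadjusted count for the difference of the genotype effects (1) was 0 to 3 with a library left out, 2 and 3 with the replicate number and the pairing as a block, and 0 in gene bodies. By nearest start alone the Klrd1 sum was 6.48 CPM in Atg14-deficient cTregs and 3.27 in control eTregs, and under TMM the Cd69 sum was 518.2 CPM in control cTregs. The causes were not tested. At a median of 35.8 counts per region and library, small changes of weak regions were not detectable.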
